A study of Mus musculus with 20 samples.

Results

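Whole-lung RNA was compared between mice of the prednisone group and mice of the control group, 5 libraries against 5 of the 20 libraries in the series, and all 15106 genes with enough signal were tested. The prednisone libraries are those that carry the prednisone label. One of them, replicate 5, has a treatment label with another replicate number than its title, and its title was used. The control libraries carry the control label, and the other 10 libraries come from an asthma model and from a group given Shegan-Mahuang Decoction (SMD), a herbal formula. All 4 groups are labelled as wild-type lung with no batch, and each group held 15 mice after 7 days of acclimatization. The study's title places the work in asthma. The labels do not state whether the prednisone mice were first made asthmatic, and the sources used here do not give strain, age, sex, dose, time of collection or the way the model was made. If those mice had been made asthmatic, an effect of prednisone and an effect of the model cannot be told apart in this comparison. The labels do not say that the libraries of a group are separate animals, so p-values measure the spread between these samples, which may be technical.

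Prednisone is a synthetic glucocorticoid used against asthma. It is inactive until the enzyme Hsd11b1 reduces it to prednisolone, which binds the glucocorticoid receptor (Nr3c1), and the receptor then enters the nucleus, induces genes such as Fkbp5, Tsc22d3, Per1 and Sgk1 through glucocorticoid response elements, and restrains inflammatory transcription. In lung, glucocorticoids lower the allergic cytokine and chemokine response and the number of eosinophils and lymphocytes. Interferons drive host defence. They signal through STAT proteins and induce families of GTPases, the guanylate-binding proteins and the immunity-related GTPases, which attack the vacuoles of intracellular microbes, together with the genes that load peptides onto MHC molecules.

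Values are FPKM (fragments scaled to gene length and library total), and differences are log2 fold changes on the log2(FPKM + 1) scale, prednisone minus control, with their standard error (SE). Genes with a limma p below 0.05 after Benjamini-Hochberg adjustment are referred to as called. FPKM values hold no counts, so depth is unknown and precision rests on the spread between libraries. Prednisone and control libraries listed 14143 to 14707 genes at 1 FPKM or more, and the correlation of log2 values over genes between any 2 of these 10 libraries was 0.946 to 0.982. Control replicate 1 stood apart: 7SL and 7SK RNA took 7.50% of its FPKM sum, against at most 0.870% in any of the other 19 libraries. In all 20 libraries the female-expressed Xist was at 28.4 to 59.3 FPKM and the Y-linked Ddx3y at most 0.162 FPKM, as in female lung. The lung identity of the samples was plain in Scgb1a1, the main secretion of airway club cells, which had 55818, 36352, 34402, 56311 and 37149.5 FPKM in prednisone replicates 1 to 5 and 54273, 52461, 53809.6, 46654 and 53722 FPKM in control replicates 1 to 5. Prednisone replicates 1 and 4 were at the control level of this gene and replicates 2, 3 and 5 were below every control library (adjusted p = 0.35).

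The lungs of the prednisone group differed from control lungs in 540 of 15106 genes (3.57%), 269 higher (1.78%) and 271 lower (1.79%). At an unadjusted p under 0.05, 1536 genes were higher and 1590 lower. These values over all genes are the reference for every list count below. The median log2 fold change over all genes was -0.0044 and the median SE was 0.105. The libraries of the groups did not overlap for 843 genes (5.58%), 368 higher and 475 lower in prednisone. Of the called genes, 188 that rose and 211 that fell also had groups that did not overlap. The 12 largest rises among these were the heat shock genes Hspa1b, Hspa1a and Hsph1, the interferon-inducible GTPase genes Tgtp1, Tgtp2, Gbp4, Iigp1, Igtp, Gbp10, Gbp6 and Gbp7, and the myeloid membrane gene Ms4a6d. The 12 largest falls in the same ranking were Klhl5, Clec14a, Prickle1, Dbp, Sox18, Tipin, Ier3, Wscd1, Myct1, Hs3st1, Gchfr and Ackr4. The number of calls depended on single libraries: it was 303 without control replicate 1, 335 without control replicate 4, 229 without prednisone replicate 2 and 265 without prednisone replicate 3. It was 65 with the level of fat markers as a covariate, a measure that is described with the endothelial genes.

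**Figure D1:**
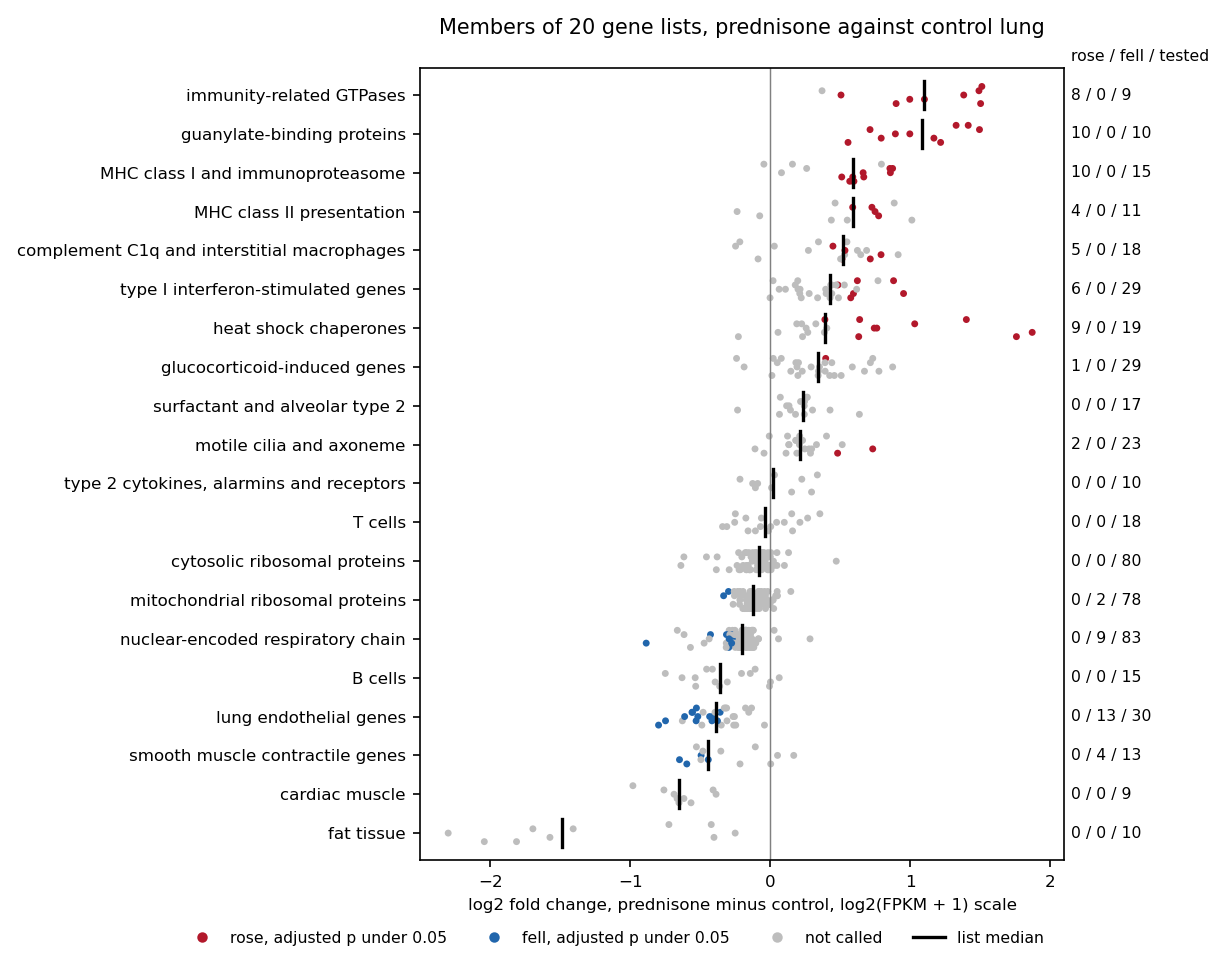
Log2 fold change (prednisone minus control, horizontal axis) of every tested member of 20 gene lists, 1 point a gene and 1 row a list, with black bars at list medians. GTPase, MHC and chaperone lists lie to the right with medians of 0.39 to 1.10, and endothelial and smooth muscle lists to the left with medians of -0.39 and -0.44.

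The start regions of some of these genes show which regulatory letters sit beside the genes that moved. The core shared by interferon response elements was searched on both strands as GAAA, any 2 bases, GAAA, in the 250 bases before each start of transcription in RefSeq (build GRCm38.p6), over 10254 tested genes with a window in that table. It was present for 3.26% of those genes. It was present for 5 of the 5 guanylate-binding protein genes with a window, for 5 of 7 immunity-related GTPase genes, for 10 of 20 type I interferon-stimulated genes and for 2 of 13 genes of MHC class I presentation. The 150 bases before the start are shown for 4 genes that rose, 5′ to 3′ on the strand of the gene, with each match in capitals. Where the capitals read TTTC first, the match lies on the opposite strand.
Gbp7 (chr3:142530186-142530335, plus strand): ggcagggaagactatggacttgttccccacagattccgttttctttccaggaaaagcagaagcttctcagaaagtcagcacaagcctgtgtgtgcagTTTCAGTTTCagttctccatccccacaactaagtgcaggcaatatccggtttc
Igtp (chr11:58199406-58199555, plus strand): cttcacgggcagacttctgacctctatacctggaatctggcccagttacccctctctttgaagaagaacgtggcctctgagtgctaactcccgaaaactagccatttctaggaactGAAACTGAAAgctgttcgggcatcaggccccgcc
Tgtp2 (chr11:49064213-49064362, minus strand): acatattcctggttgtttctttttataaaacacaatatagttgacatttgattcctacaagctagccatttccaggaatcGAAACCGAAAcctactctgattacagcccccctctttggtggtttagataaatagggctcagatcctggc
Ifit1 (chr19:34640739-34640888, plus strand): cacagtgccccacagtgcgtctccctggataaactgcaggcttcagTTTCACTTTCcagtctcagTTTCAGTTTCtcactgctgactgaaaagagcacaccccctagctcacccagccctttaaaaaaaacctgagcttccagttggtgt
The match begins 53 bases before the start of Gbp7, 34 before Igtp and 70 before Tgtp2, and Ifit1 has 2 matches, of which the nearer begins 85 bases before the start. A match describes the letters and does not show that a factor binds there.

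Every guanylate-binding protein gene that could be tested rose in the prednisone group, 10 of 10 against 1.78% of all genes, with a median log2 fold change of 1.08 against -0.0044 for all genes. Gbp11, the remaining member of the list of 11, stayed below the filter with means of 0.752 FPKM in prednisone and 0.568 FPKM in control. Gbp4 (chr5:105115767-105139586, GRCm38 coordinates of GENCODE vM21, as for the genes that follow) had 27.5, 39.98, 66.1, 61.6 and 16.8 FPKM in prednisone replicates 1 to 5, against 12.5, 13.99, 12.4, 10.02 and 15.4 FPKM in control replicates 1 to 5 (log2 fold change 1.49 ± 0.34 SE, adjusted p = 0.0197). All prednisone libraries were above all control libraries, but replicate 5 by a narrow margin, and replicates 3 and 4 were the highest. Gbp7 (chr3:142530342-142550149) had 18.2, 23.8, 34.6, 36.1 and 14.1 FPKM in prednisone and 10.3, 9.39, 9.14, 10.8 and 10.8 FPKM in control libraries (1.17 ± 0.20 SE, adjusted p = 0.00378). The order of the prednisone libraries was nearly the same as for Gbp4, and the controls lay close together. Gbp5, which takes part in inflammasome activation, had 6.19, 9.37, 13.04, 11.01 and 3.13 FPKM in prednisone and 0.988, 3.24, 0.880, 3.59 and 4.29 FPKM in control libraries (1.41 ± 0.36 SE, adjusted p = 0.0362), and here prednisone replicate 5 lay among the controls. Gbp10 and Gbp6 rose by 1.33 and 1.22. They are near-identical neighbours on chromosome 5 between which reads may be split, so their separate levels are uncertain. Without prednisone replicate 3, 6 of the 10 genes passed.

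The immunity-related GTPases moved in the same direction, with 8 of 9 tested members called, against 1.78% of all genes that rose, and a median log2 fold change of 1.10. Tgtp2 (chr11:49057194-49064206) had 19.8, 28.5, 40.7, 36.1 and 12.1 FPKM in prednisone and 7.97, 8.71, 8.48, 7.33 and 8.85 FPKM in control libraries (1.50 ± 0.23 SE, adjusted p = 0.00259). Its near-identical neighbour Tgtp1 gave 1.51, and the level of each copy alone is uncertain. Iigp1, a GTPase that coats parasite vacuoles in mice, had 15.3, 24.5, 33.2, 33.4 and 12.7 FPKM in prednisone and 6.29, 8.55, 6.61, 5.85 and 9.53 FPKM in control libraries (1.49 ± 0.24 SE, adjusted p = 0.00318). Igtp, also called Irgm3, had 22.6, 24.1, 47.5, 42.1 and 11.4 FPKM in prednisone and 8.61, 10.2, 9.18, 8.94 and 10.8 FPKM in control libraries (1.38 ± 0.27 SE, adjusted p = 0.00888). In all 3, prednisone replicates 3 and 4 were the highest and replicate 5 was the lowest, still above every control. The member that did not pass, 9930111J21Rik2, had a log2 fold change of 0.37. The summed level of the list was 78.9 to 231 FPKM in prednisone and 51.9 to 64.5 FPKM in control libraries. Between 7 and 8 members passed whichever library of the 20 was left out, 5 passed when prednisone and control libraries were fitted alone, and 4 with the fat marker covariate.

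The rise was shared in part by other interferon targets. Of 29 type I interferon-stimulated genes tested, 6 rose and 0 fell, against 1.78% of all genes that rose, and 17 were higher at an unadjusted p under 0.05, with a median of 0.43. The count was 3 with the fat marker covariate, without the filter and with only prednisone and control libraries. Zbp1, a sensor of left-handed nucleic acids, had 4.68, 8.46, 8.93, 6.55 and 2.82 FPKM in prednisone and 2.49, 3.55, 2.22, 2.37 and 2.29 FPKM in control libraries (0.95 ± 0.22 SE, adjusted p = 0.0217). Prednisone replicate 3 was the highest, and replicate 5 lay below control replicate 2. Ifit1, which binds foreign RNA caps, varied little within groups and had 5.68, 6.25, 5.84, 6.401 and 5.58 FPKM in prednisone and 3.85, 3.25, 3.56, 3.98 and 3.39 FPKM in control libraries (0.59 ± 0.12 SE, adjusted p = 0.00939), with prednisone replicate 5 close to the others. Oas2, an oligoadenylate synthetase activated by double-stranded RNA, rose by 0.62 (adjusted p = 0.0321). Among the members that did not pass, Ifit3 was at 0.18, Ifit3b at 0.02 and Bst2 at 0.21 on the log2 scale.

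Of 15 genes of MHC class I presentation and the immunoproteasome, 10 rose and 0 fell, against 1.78% of all genes that rose, and 3 passed with the fat marker covariate. The list had 12 genes higher at an unadjusted p under 0.05 and a median of 0.59. H2-Q6, a non-classical class I heavy chain with close relatives in its cluster, had 12.1, 17.6, 16.8, 13.8 and 14.7 FPKM in prednisone and 8.43, 9.39, 6.70, 6.80 and 7.31 FPKM in control libraries (0.87 ± 0.11 SE, adjusted p = 0.000779). B2m, the light chain of all class I molecules, averaged 856 ± 36.6 FPKM in prednisone and 569.7 ± 41.4 FPKM in control libraries (SD, n = 5 each, log2 fold change 0.59). Tap1, which pumps peptides into the endoplasmic reticulum, had 14.7, 22.8, 26.7, 22.2 and 12.7 FPKM in prednisone and 10.5, 11.3, 9.31, 8.38 and 11.3 FPKM in control libraries (0.86 ± 0.17 SE, adjusted p = 0.00818). Psmb9, an interferon-induced proteasome subunit, averaged 28.4 ± 4.77 FPKM in prednisone and 17.4 ± 2.28 FPKM in control libraries (adjusted p = 0.00888). Nlrc5, the transactivator of class I genes, had 3.37, 6.24, 7.45, 8.58 and 3.57 FPKM in prednisone and 2.36, 2.31, 2.80, 2.01 and 3.77 FPKM in control libraries (adjusted p = 0.0205). Prednisone replicates 1 and 5 of Nlrc5 lay below the highest control, while for H2-Q6 and Tap1 the groups did not overlap. The members that did not pass were H2-Q7, Tap2, Tapbp, Psmb10 and Erap1, with log2 fold changes of -0.05 to 0.79.

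MHC class II genes, which antigen-presenting cells use to show peptides to helper T cells, had 4 of 11 tested members that rose, 9 higher at an unadjusted p under 0.05 and a median of 0.59, against 1.78% of all genes that rose. With the fat marker covariate 0 passed. H2-Ab1 had 60.6, 99.3, 96.6, 71.8 and 64.3 FPKM in prednisone and 47.8, 49.8, 42.01, 40.8 and 42.9 FPKM in control libraries (0.77 ± 0.14 SE, adjusted p = 0.00557). Cd74, the invariant chain, had 482, 830.1, 747, 506 and 577 FPKM in prednisone and 399, 419, 323, 366 and 354 FPKM in control libraries (0.73 ± 0.15 SE, adjusted p = 0.0101). H2-Eb1 rose by 0.75 and the peptide-exchange chain H2-DMa by 0.59. The groups did not overlap for these 4 genes, and prednisone replicates 2 and 3 were the highest and replicate 1 the lowest in each. That order differs from the GTPases, where replicates 3 and 4 led. H2-Oa and H2-Ob, chains of B cells, were at -0.08 and -0.24.

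**Figure D2:**
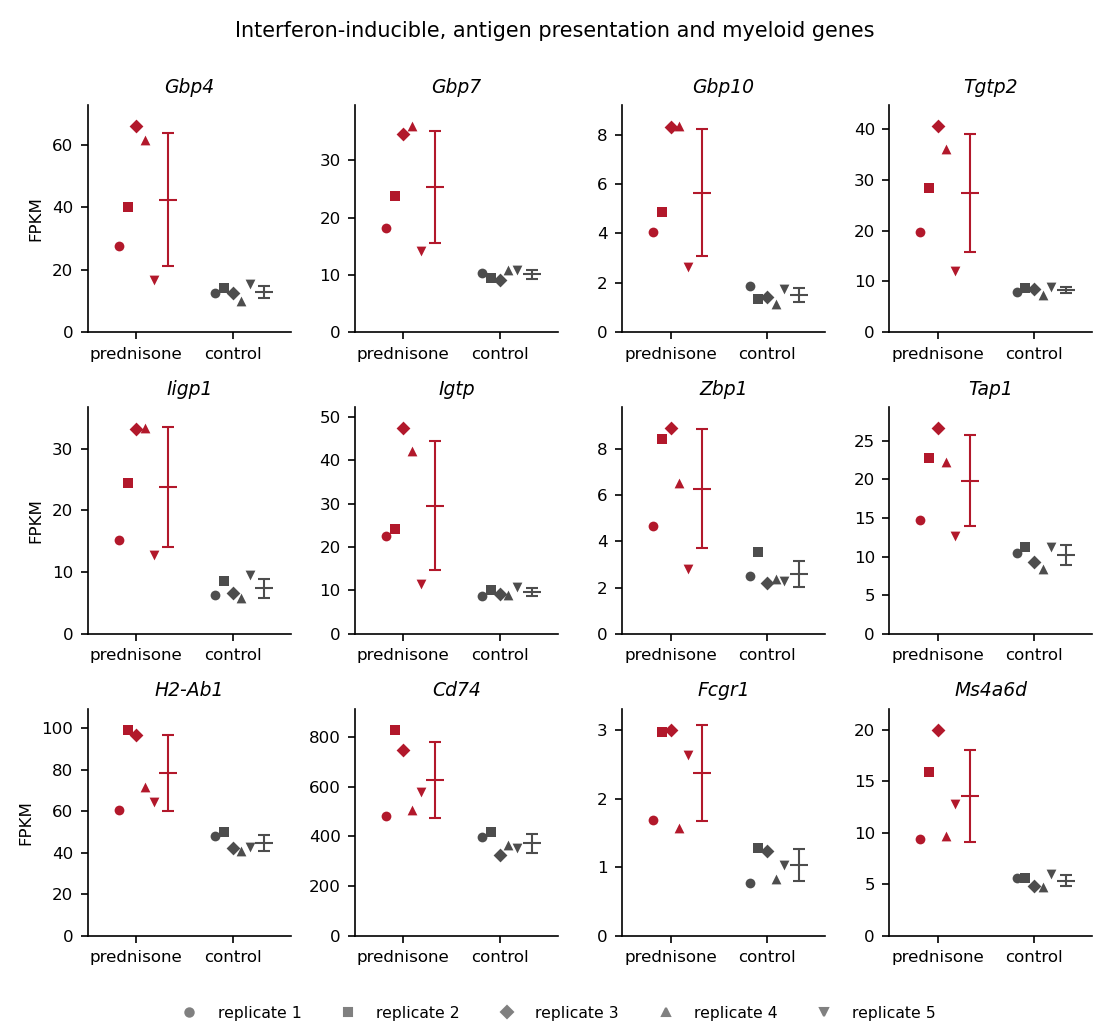
FPKM (vertical axes from 0) of 12 genes in the 5 prednisone libraries (left, red) and the 5 control libraries (right, grey) of each panel, with marker shapes for replicate numbers and bars for mean ± SD. For Gbp4 the prednisone libraries spread from 16.8 to 66.1 FPKM and the control libraries from 10.02 to 15.4 FPKM, while Cd74 and H2-Ab1 have other libraries at the top.

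Myeloid genes formed the third immune group. Of 18 genes of complement C1q and interstitial macrophages, 5 rose, against 1.78% of all genes. In this list 13 were higher at an unadjusted p under 0.05, against 1536 of all 15106 genes, and the median was 0.52. Fcgr1, the high-affinity receptor for immunoglobulin G, had 1.68, 2.98, 3.01, 1.56 and 2.64 FPKM in prednisone and 0.771, 1.28, 1.23, 0.829 and 1.03 FPKM in control libraries (0.71 ± 0.14 SE, adjusted p = 0.00827). Fcgr3, a low-affinity receptor, had 9.32, 18.2, 20.3, 8.54 and 13.7 FPKM in prednisone and 7.57, 6.93, 7.99, 6.02 and 7.91 FPKM in control libraries (0.79 ± 0.21 SE, adjusted p = 0.046). In both, prednisone replicates 2, 3 and 5 were well above the controls and replicates 1 and 4 just above them, the same split of libraries as for Scgb1a1, where 2, 3 and 5 were the low ones. C1qc and C1qa, chains of the first complement component, rose by 0.53 and 0.51, and the mannose receptor Mrc1 by 0.45. Ms4a6d, a tetraspanning membrane gene of monocytes and macrophages, had 9.43, 15.9, 20.01, 9.72 and 12.7 FPKM in prednisone and 5.57, 5.61, 4.80, 4.71 and 5.96 FPKM in control libraries (1.15 ± 0.19 SE, adjusted p = 0.00337). With the fat marker covariate 0 of the 18 passed, and 2 passed without the filter or with only prednisone and control libraries. With libraries left out, 1 gene passed without prednisone replicate 3, 2 without prednisone replicate 2 or 5 or without control replicate 1, 2 or 3, and 3 without control replicate 4 or 5. In bulk tissue, more cells of a type and more RNA per cell cannot be told apart.

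Among alveolar macrophage genes, 3 of 15 rose and 1 fell, against 1.78% and 1.79% of all genes. At an unadjusted p under 0.05, 7 were higher and 4 lower. In all, 9 had a positive and 6 a negative fold change. The median was 0.34, and log2 fold changes ran from -2.37, which was not called, to 0.91. Chil3, a chitinase-like protein of alternatively activated macrophages, had 51.6, 74.1, 73.7, 33.03 and 90.1 FPKM in prednisone and 30.7, 29.3, 36.98, 40.99 and 24.8 FPKM in control libraries (0.91 ± 0.24 SE, adjusted p = 0.0387), with prednisone replicate 4 inside the control range. Plet1 rose by 0.47 with groups that did not overlap. Car4, which capillary endothelium also expresses, fell by 0.52 on the log2 scale. Siglecf and Ear2 averaged 2.52 and 78.7 FPKM in prednisone and 1.62 and 54.8 FPKM in control libraries (adjusted p = 0.0551 and 0.12). Of 13 dendritic cell genes, 1 was called, Cd209a, against 1.78% of all genes that rose. It had 3.70, 9.68, 7.73, 4.39 and 8.10 FPKM in prednisone and 3.29, 2.48, 3.12, 2.41 and 3.68 FPKM in control libraries (adjusted p = 0.0407).

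Lipid mediator synthesis had 2 called genes of 15, both higher, against 1.78% of all genes that rose. Alox5ap, the partner of 5-lipoxygenase in leukotriene synthesis, had 15.8, 23.9, 21.9, 14.4 and 19.6 FPKM in prednisone and 14.1, 13.6, 8.55, 11.03 and 12.1 FPKM in control libraries (0.64 ± 0.15 SE, adjusted p = 0.0247). Tbxas1, thromboxane synthase, had 2.08, 5.04, 5.50, 2.79 and 3.76 FPKM in prednisone and 0.245, 0.262, 2.22, 0.192 and 0.255 FPKM in control libraries (1.63 ± 0.36 SE, adjusted p = 0.0185). Its fold rests on 4 controls under 0.3 FPKM, and control replicate 3 lay within the prednisone range. Of 31 chemokine and receptor genes, 3 rose and 1 fell, against 1.78% and 1.79% of all genes. Cxcl10, an interferon-induced attractant of T cells, had 0.921, 1.29, 1.01, 1.13 and 1.44 FPKM in prednisone and 0.379, 0.295, 0.750, 0.177 and 0.476 FPKM in control libraries (adjusted p = 0.0354), and its receptor Cxcr3 averaged 1.16 ± 0.325 FPKM in prednisone and 0.529 ± 0.0950 FPKM in control libraries. Cxcl16 rose by 0.34, and Cxcl12, a stromal and endothelial attractant, had a log2 fold change of -0.28 (adjusted p = 0.0398). Of 19 inflammatory cytokine and NF-kB feedback genes, Il18 was the 1 called, against 1.78% of all genes that rose. It averaged 11.7 ± 1.65 FPKM in prednisone and 7.71 ± 1.05 FPKM in control libraries. Il1b had 2.72, 8.46, 8.31, 4.03 and 4.65 FPKM in prednisone and 3.13, 4.25, 2.97, 1.76 and 3.06 FPKM in control libraries (adjusted p = 0.239), with prednisone replicates 2 and 3 the highest.

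Hspa1b and Hspa1a, stress-inducible chaperones, had the largest rises among the ranked genes, which were called and had groups that did not overlap. Of 19 heat shock genes, 9 rose and 0 fell, against 1.78% of all genes that rose. All 9 had groups that did not overlap, and the median of the list was 0.39. Hspa1b (chr17:34956436-34959238), an inducible HSP70, had 26.3, 10.7, 18.5, 20.6 and 19.01 FPKM in prednisone and 6.398, 3.13, 2.83, 5.77 and 4.18 FPKM in control libraries (1.87 ± 0.29 SE, adjusted p = 0.00259). Its near-identical copy Hspa1a gave 1.76, and the level of each copy alone is uncertain. Hsph1, an HSP110 that exchanges nucleotide on HSP70, had 60.8, 37.7, 43.9, 53.9 and 49.1 FPKM in prednisone and 20.1, 12.9, 15.7, 22.8 and 18.8 FPKM in control libraries (1.40 ± 0.18 SE, adjusted p = 0.000779). Dnajb1, an HSP40 that delivers clients to HSP70, had 24.7, 22.1, 25.3, 23.1 and 22.1 FPKM in prednisone and 10.6, 9.93, 9.66, 17.1 and 8.96 FPKM in control libraries (1.03 ± 0.16 SE, adjusted p = 0.00286). Prednisone libraries were tight for Dnajb1, and control replicate 4 was the highest control. Among prednisone libraries, replicate 1 was the highest and replicate 2 the lowest for Hspa1b and Hsph1, an order unlike that of the GTPase or MHC genes. The chaperones of the endoplasmic reticulum and mitochondria did not pass, with Hspa5 at 0.19, Hspd1 at 0.26 and Hspe1 at 0.22. The count was 8 to 12 under the 8 other settings tried and 9 or 10 when any 1 library was left out.

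Chaperones also load the glucocorticoid receptor with its hormone. They were the members of the receptor and ligand list that passed, 2 of 13, against 1.78% of all genes that rose. Hsp90aa1, the inducible HSP90 of the receptor complex, had 199, 133, 162, 168 and 193 FPKM in prednisone and 117, 95.1, 101, 121 and 113 FPKM in control libraries (0.63 ± 0.13 SE, adjusted p = 0.0127). Stip1, which links HSP70 to HSP90, averaged 45.5 ± 7.62 FPKM in prednisone and 30.5 ± 3.77 FPKM in control libraries (adjusted p = 0.0341). The receptor itself, Nr3c1, averaged 19.99 ± 1.92 FPKM in prednisone and 20.2 ± 1.79 FPKM in control libraries (-0.01 ± 0.07 SE). Hsd11b1, the enzyme that activates prednisone, averaged 91.4 ± 16.1 FPKM in prednisone and 98.9 ± 9.05 FPKM in control libraries (-0.13 ± 0.12 SE, adjusted p = 0.576).

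Classic targets of the glucocorticoid receptor mostly missed the threshold. Of 29 tested genes known to be induced by glucocorticoids, 1 rose, against 1.78% of all genes, and 0 fell. At an unadjusted p under 0.05, 13 were higher, 27 had a positive fold change, and the median was 0.34. Fkbp5, a co-chaperone that limits receptor activity, had 37.9, 13.98, 10.4, 20.8 and 19.6 FPKM in prednisone and 18.8, 6.23, 15.04, 27.7 and 8.28 FPKM in control libraries (0.46 ± 0.37 SE, adjusted p = 0.517). Both groups were spread widely and overlapped. Tsc22d3, the glucocorticoid-induced leucine zipper, had 369, 237, 215, 323 and 271 FPKM in prednisone and 235, 171, 208, 319 and 185 FPKM in control libraries (0.34 ± 0.24 SE, adjusted p = 0.438). In both genes prednisone replicate 1 and control replicate 4 were the highest of their groups. Zbtb16, Klf9, Klf15 and Per1 gave log2 fold changes of 0.19 ± 0.36, 0.01 ± 0.15, 0.23 ± 0.24 and 0.20 ± 0.11 (SE), with adjusted p from 0.286 to 0.976. Mt2 and Mt1, metallothioneins that bind zinc, averaged 29.2 ± 7.30 and 59.9 ± 10.2 FPKM in prednisone and 17.7 ± 3.22 and 41.8 ± 7.02 FPKM in control libraries (adjusted p = 0.0559 and 0.0652). Dusp1, a phosphatase of MAP kinases, had 279, 188, 174, 289 and 186 FPKM in prednisone and 127, 108, 125, 151 and 246 FPKM in control libraries (adjusted p = 0.121), with control replicate 5 alone at the prednisone level. For scale within the series, libraries of the SMD group averaged 3.49 FPKM of Fkbp5 and 1.20 FPKM of Zbtb16, below both groups compared here.

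The member that passed was Sgk1, a kinase that activates the epithelial sodium channel. It had 68.6, 67.7, 74.5, 60.2 and 69.5 FPKM in prednisone and 47.4, 45.8, 51.1, 63.3 and 51.04 FPKM in control libraries (0.40 ± 0.11 SE, adjusted p = 0.0483), with control replicate 4 inside the prednisone range. The call was marginal. It did not hold without prednisone replicate 1, 2 or 3 or control replicate 1, 2 or 3, nor without model replicate 2 or 5 or SMD replicate 1, 2, 4 or 5, and 0 of the 29 genes passed without the filter, with only prednisone and control libraries or with the fat marker covariate, while 3 passed with quantile normalization or a correction for length and GC content. Sgk1 was the 1 gene of 10254 (0.00975%) with the full palindrome of the glucocorticoid response element in a window, AGAACA, any 3 bases, TGTTCT. Sgk1 had 6 windows, and a gene was counted if any of its windows held a match. The search took exact matches only and did not reach beyond 250 bases before a start. Of 26 glucocorticoid-induced genes with a window 1 matched, and Fkbp5, Per1 and Tsc22d3 did not. The match describes the letters and does not show that the receptor binds there. The 250 bases before the start concerned are shown with the palindrome in capitals, which begins 189 bases before the start.
Sgk1 (chr10:21993640-21993889, plus strand): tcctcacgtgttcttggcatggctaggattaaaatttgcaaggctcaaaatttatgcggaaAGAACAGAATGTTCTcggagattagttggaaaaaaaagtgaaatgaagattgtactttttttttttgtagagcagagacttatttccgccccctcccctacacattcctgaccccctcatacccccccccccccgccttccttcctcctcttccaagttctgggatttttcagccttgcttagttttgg

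**Figure D3:**
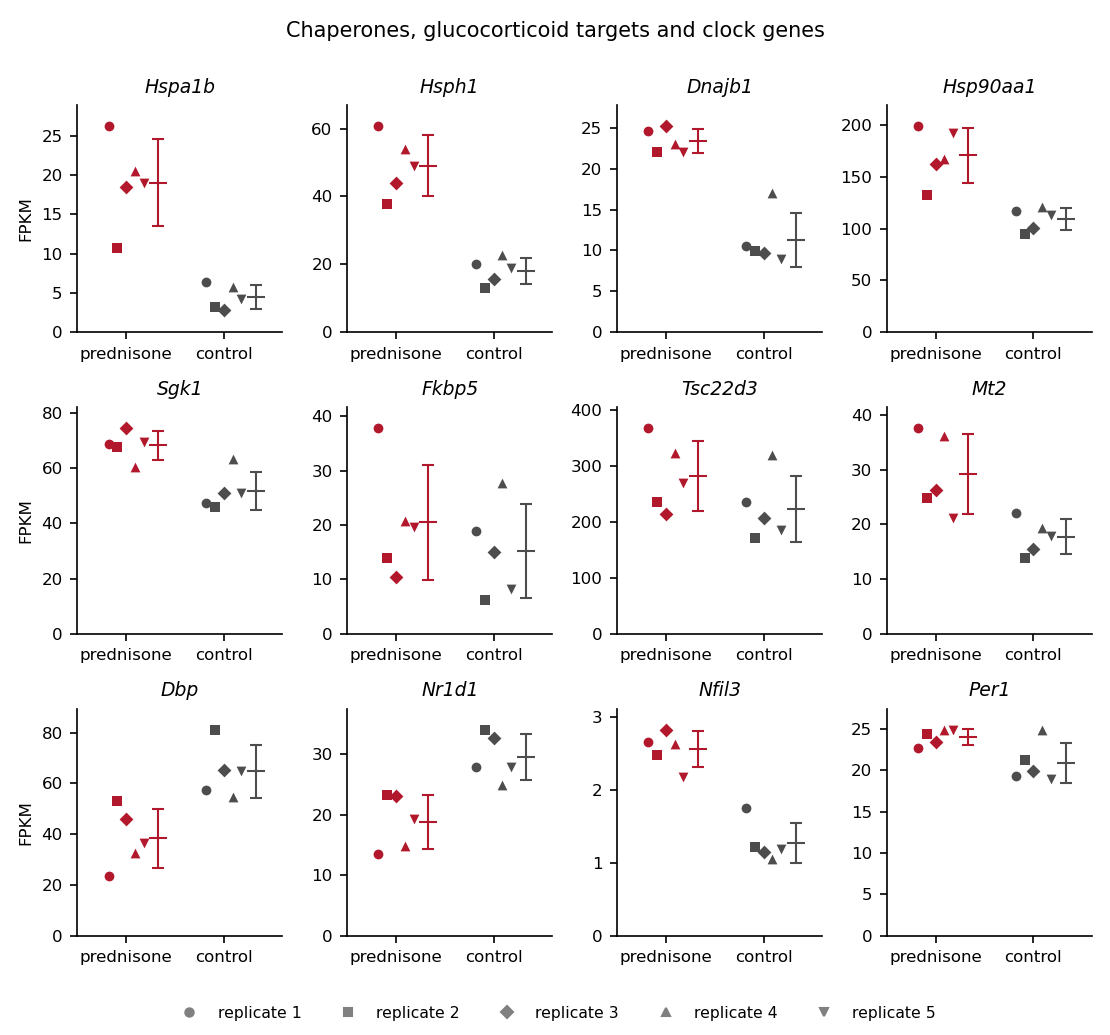
FPKM (vertical axes from 0) of chaperones, glucocorticoid targets and clock genes in prednisone libraries (left, red) and control libraries (right, grey), with marker shapes for replicate numbers and bars for mean ± SD. Hspa1b, Hsph1, Dnajb1 and Hsp90aa1 separate fully, Fkbp5 and Tsc22d3 overlap, and Dbp and Nr1d1 lie below control.

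Some clock outputs were lower. Of 13 repressors and outputs of the circadian clock, 3 fell and 0 rose, against 1.79% of all genes that fell, and the median was -0.12. Dbp, a PAR-family transcription factor that peaks once a day, had 23.6, 53.2, 46.2, 32.4 and 36.7 FPKM in prednisone and 57.5, 81.3, 65.4, 54.8 and 64.8 FPKM in control libraries (-0.78 ± 0.17 SE, adjusted p = 0.0189). Nr1d1, the repressor REV-ERB alpha, had 13.5, 23.3, 23.1, 14.9 and 19.3 FPKM in prednisone and 27.9, 34.1, 32.7, 24.9 and 27.9 FPKM in control libraries (-0.64 ± 0.15 SE, adjusted p = 0.0205). Prednisone replicates 1 and 4 were the lowest for both, and no library overlapped. Hlf, of the same family as Dbp, fell by 0.30 on the log2 scale. Nfil3, a repressor that binds the sites of Dbp, was the 1 called gene of 4 tested in the list of clock activators, against 1.78% of all genes that rose. It rose, with 2.67, 2.48, 2.83, 2.63 and 2.18 FPKM in prednisone and 1.75, 1.21, 1.15, 1.05 and 1.18 FPKM in control libraries (0.65 ± 0.09 SE, adjusted p = 0.00109). The sources used here do not give the time of day at collection, and its part in these values was not tested. The E-box CACGTG was present for 5 of the 11 clock repressors and outputs with a window (Bhlhe41, Ciart, Cry1, Per1 and Tef). It was present for 9.73% of all tested genes with a window. Dbp, Nr1d1 and Hlf, the 3 that fell, had no match. The D-box of Dbp and Nfil3 was present in 0.156% of genes and in 0 of the 11. Of 22 immediate early genes, 2 fell and 0 rose, against 1.79% of all genes that fell. Most of the list went the other way, with 17 positive fold changes and a median of 0.18. At an unadjusted p under 0.05, 4 were higher and 4 lower. The 2 that fell were Ier3 and Jun, at 34.2 ± 3.93 and 37.8 ± 3.09 FPKM in prednisone and 57.8 ± 8.23 and 48.1 ± 3.03 FPKM in control libraries.

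Endothelial genes held the most called falls of the 49 lists. Of 30, 13 fell against 1.79% of all genes, 10 of the 13 without overlap, 25 were lower at an unadjusted p under 0.05, all 30 had a negative fold change, and the median was -0.39. Clec14a (chr12:58264720-58269290), an endothelial lectin of vessel growth, had 30.7, 30.9, 36.3, 30.8 and 40.7 FPKM in prednisone and 51.9, 67.3, 55.99, 62.1 and 59.97 FPKM in control libraries (-0.80 ± 0.09 SE, adjusted p = 0.000248). Sox18, a transcription factor of vessel and lymphatic identity, had 21.7, 14.5, 23.8, 20.01 and 24.5 FPKM in prednisone and 36.7, 36.1, 35.1, 30.5 and 38.5 FPKM in control libraries (-0.75 ± 0.13 SE, adjusted p = 0.00497). Both genes separated the groups fully. Plvap, which forms the diaphragms of capillary pores, had 50.3, 40.5, 52.04, 51.6 and 65.6 FPKM in prednisone and 86.4, 87.3, 73.96, 86.3 and 64.3 FPKM in control libraries (-0.61 ± 0.12 SE, adjusted p = 0.00894), with prednisone replicate 5 just above control replicate 5. Gja4, a gap junction protein of arterial endothelium, averaged 11.9 ± 2.07 FPKM in prednisone and 17.9 ± 2.11 FPKM in control libraries (adjusted p = 0.0127). The pan-endothelial genes Pecam1, Kdr and Cldn5 did not pass and gave -0.35, -0.32 and -0.26. Among the ranked falls outside the list, Myct1, which endothelium also expresses, had 7.03, 8.35, 11.1, 7.20 and 9.38 FPKM in prednisone and 14.03, 16.4, 14.3, 13.2 and 14.7 FPKM in control libraries (-0.71 ± 0.12 SE). The count was 6 without prednisone replicate 2, 8 without prednisone replicate 4, 8 without control replicate 2 and 6 without control replicate 4, and 1 with the fat marker covariate.

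Markers of fat and heart muscle had negative medians with 0 called, and their part in the endothelial and immune results was not tested. Markers of fat, 12 genes of which 10 were tested, had a median log2 fold change of -1.49, with 0 called and 7 lower with an unadjusted p under 0.05. Their FPKM summed to between 24.4 and 57.5 in prednisone and between 36.6 and 361 in control libraries. Lep and Ucp1 were at 0 in some prednisone libraries and no other fat marker was at 0 anywhere in the 10 libraries. Cidec, a lipid droplet protein of adipocytes, had 5.82, 3.65, 3.95, 4.46 and 3.11 FPKM in prednisone and 28.9, 4.81, 4.97, 37.1 and 10.7 FPKM in control libraries, so that control replicates 1 and 4 carried the most. Markers of cardiac muscle, which mouse pulmonary veins contain, had a median of -0.65 with 0 of 9 called and 4 lower at an unadjusted p under 0.05, sums of 76.3 to 259 FPKM in prednisone and 157 to 547 FPKM in control libraries, and none at 0. Markers of skeletal muscle went the other way, with a median of 0.30 and 0 of 4 tested called. With the mean log2 level of fat markers as a covariate in limma, 1 of the 30 endothelial genes passed, 3 of 10 guanylate-binding proteins, 4 of 9 immunity-related GTPases, 3 of 15 class I genes, 0 of 11 class II genes and 8 of 19 chaperones. Control replicates 2 and 3 had fat sums of 41.2 and 36.6 FPKM, inside the prednisone range. Endothelial genes summed to 1329 to 1722 FPKM in prednisone and 1988 to 2373 FPKM in control libraries. Guanylate-binding protein genes summed to 98.2 to 243 FPKM in prednisone and 70.8 to 84.8 FPKM in control libraries. Genes of complement C1q and interstitial macrophages overlapped, at 380 to 764 FPKM in prednisone and 335 to 437 FPKM in control libraries.

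Of 13 smooth muscle contractile genes, 4 fell, against 1.79% of all genes, and 8 had lower values with an unadjusted p under 0.05, with a median of -0.44. Acta2, smooth muscle actin, had 38.1, 28.4, 32.2, 37.7 and 30.2 FPKM in prednisone and 45.2, 54.1, 49.2, 41.3 and 66.5 FPKM in control libraries (-0.60 ± 0.11 SE, adjusted p = 0.00545). Myh11, smooth muscle myosin, had 10.8, 9.33, 9.18, 11.1 and 8.77 FPKM in prednisone and 14.8, 13.9, 13.3, 12.7 and 16.6 FPKM in control libraries (-0.49 ± 0.09 SE, adjusted p = 0.00614). Des, desmin, and Actg2, the enteric actin, fell by 0.44 and 0.65 on the log2 scale. The groups did not overlap for Acta2, Myh11 and Des, while control replicate 4 lay inside the prednisone range for Actg2. With the fat covariate 0 of the 13 passed. Adrb1, a beta-adrenergic receptor, had 7.37, 7.31, 9.14, 7.77 and 9.62 FPKM in prednisone and 11.6, 12.8, 11.3, 10.8 and 12.4 FPKM in control libraries (-0.47 ± 0.08 SE, adjusted p = 0.00378). It was the 1 called gene of 6 adrenergic and muscarinic receptors tested, against 1.79% of all genes that fell.

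Nuclear-encoded genes of the respiratory chain differed by small amounts. Of 83, 9 fell and 0 rose, against 1.79% of all genes that fell, 63 were lower at an unadjusted p under 0.05, and the median was -0.20. Cox4i2, the lung isoform of a cytochrome oxidase subunit, had 39.4, 34.3, 41.2, 35.3 and 42.2 FPKM in prednisone and 50.7, 56.8, 45.4, 58.8 and 48.97 FPKM in control libraries (-0.43 ± 0.08 SE, adjusted p = 0.00746). Cox6a1 and Ndufa4 fell by 0.31 and 0.30 on the log2 scale. Cox8b, an isoform of heart and brown fat, had 9.76, 5.69, 6.26, 7.02 and 4.50 FPKM in prednisone and 16.5, 6.29, 11.9, 17.9 and 14.97 FPKM in control libraries (-0.89 ± 0.23 SE, adjusted p = 0.0403), and its control values were highest in replicates 1 and 4, the libraries with the most fat marker RNA. The 13 genes of the mitochondrial genome had a median of -0.08 with 0 called and 3 lower at an unadjusted p under 0.05. Of 78 mitochondrial ribosomal protein genes, 2 fell (Mrpl22 and Mrpl55), or 2.56%, near the 1.79% of all genes that fell. Of 80 cytosolic ribosomal protein genes 0 were called, with 5 lower at an unadjusted p under 0.05. The medians of these lists were -0.12 and -0.08. Genes that fell were shorter and richer in GC than genes that rose, with a median exonic length of 2680 bases against 3836 and a median GC content of 52.8% against 47.4%, and the respiratory chain genes had a median length of 1569 bases. The count stayed at 9 after correction for length and GC content, was 16 under median-of-ratios scaling and 0 with the fat covariate. It was 3, 2, 5 and 3 without prednisone replicates 2 to 5, 3 and 2 without control replicates 1 and 4, and 15 without model replicate 4.

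**Figure D4:**
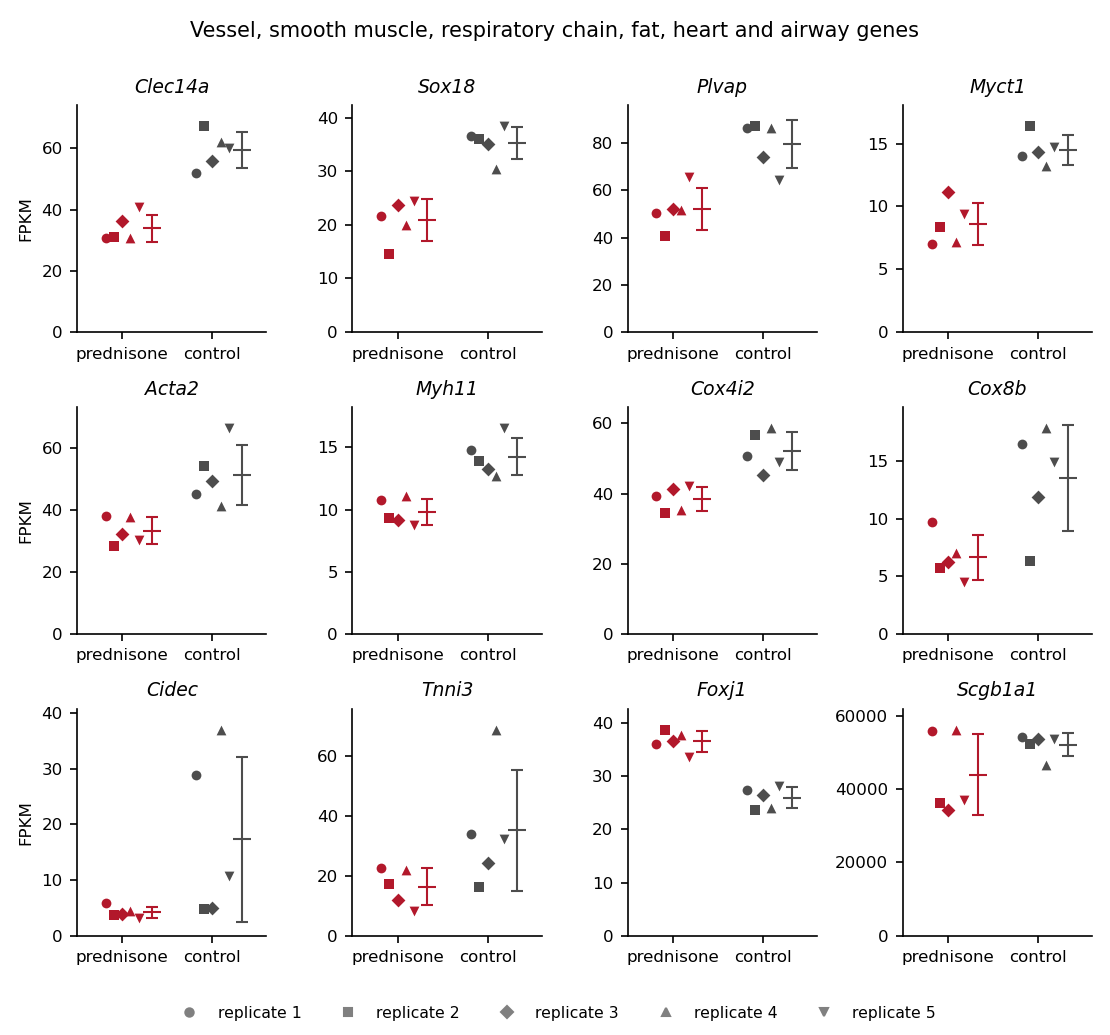
FPKM (vertical axes from 0) of endothelial, smooth muscle, respiratory chain, fat (Cidec), heart (Tnni3) and airway genes in prednisone libraries (left, red) and control libraries (right, grey), with marker shapes for replicate numbers and bars for mean ± SD. Clec14a, Sox18, Acta2 and Myh11 lie lower in every prednisone library, while Cidec is high in control replicates 1 and 4 and near the prednisone level in control replicates 2 and 3.

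Several individual falls had no list. Klhl5, an actin-binding kelch protein, had 43.3, 8.93, 33.7, 34.1 and 12.7 FPKM in prednisone and 48.1, 51.5, 49.3, 64.2 and 50.99 FPKM in control libraries (-1.18 ± 0.32 SE, adjusted p = 0.044), and its mean rests on the low values of prednisone replicates 2 and 5. Prickle1, a planar cell polarity protein, had 8.04, 7.02, 9.19, 8.85 and 10.1 FPKM in prednisone and 13.8, 18.2, 15.4, 14.02 and 16.8 FPKM in control libraries (-0.79 ± 0.09 SE, adjusted p = 0.000248). Tipin, which stabilizes replication forks, had 5.66, 6.29, 5.63, 5.72 and 4.80 FPKM in prednisone and 10.4, 10.6, 9.07, 9.05 and 11.5 FPKM in control libraries (-0.75 ± 0.11 SE, adjusted p = 0.00128). Both of these separated the groups with a small spread inside each. Hs3st1, a heparan sulfate sulfotransferase, fell by 0.67 on the log2 scale, Wscd1 fell by 0.72, Gchfr, the feedback regulator of GTP cyclohydrolase, fell by 0.66, and Ackr4, a scavenger receptor for chemokines, fell by 0.65. Of 22 genes of DNA replication and mitosis, 1 was called, Mki67, against 1.78% of all genes that rose. It had 1.58, 2.42, 2.75, 1.95 and 2.95 FPKM in prednisone and 1.35, 1.11, 1.04, 0.963 and 1.39 FPKM in control libraries (0.60 ± 0.15 SE, adjusted p = 0.0346).

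The lists of B cells, T cells, immunoglobulins and type 2 immunity held no called gene. Of 15 B cell genes 0 were called, 13 had a negative fold change, 2 were lower with an unadjusted p under 0.05 and the median was -0.36. Cd79a, a chain of the B cell receptor, averaged 8.96 ± 3.27 FPKM in prednisone and 14.4 ± 5.20 FPKM in control libraries (SD, n = 5 each, limma adjusted p = 0.149), and control replicate 2 was the highest library. T cell genes had a median of -0.04 with 0 of 18 called and 2 lower at an unadjusted p under 0.05. Immunoglobulin constant region and plasma cell genes had a median of 0.00 with 0 of 17 called and 2 higher at an unadjusted p under 0.05, and 0 of 56 tested variable segments were called, with 1 lower. Igha, the constant region of immunoglobulin A, had 6.10, 17.2, 10.9, 6.51 and 9.14 FPKM in prednisone and 6.92, 8.16, 5.66, 3.81 and 6.400 FPKM in control libraries (adjusted p = 0.44). Ighg1 had 3.84, 15.1, 2.25, 1.06 and 1.96 FPKM in prednisone and 0.816, 0.417, 1.02, 0.199 and 0.767 FPKM in control libraries (adjusted p = 0.0521). Its groups did not overlap although the call was missed, and prednisone replicate 2 was far above the others. Of 23 type 2 cytokine, alarmin and receptor genes, 10 passed the filter and 0 were called, with 3 higher at an unadjusted p under 0.05. Il33, an epithelial alarmin, averaged 19.6 ± 4.42 FPKM in prednisone and 15.6 ± 2.26 FPKM in control libraries, and Il4ra 10.99 ± 1.63 FPKM in prednisone and 11.7 ± 1.24 FPKM in control libraries (adjusted p = 0.194 and 0.651). Ccl17, an attractant of Th2 cells, had 4.94, 6.34, 6.59, 4.60 and 5.92 FPKM in prednisone and 4.38, 4.71, 2.07, 3.54 and 2.29 FPKM in control libraries (adjusted p = 0.129), and Ccl11, eotaxin, averaged 1.10 ± 0.249 FPKM in prednisone and 1.70 ± 0.623 FPKM in control libraries (adjusted p = 0.19). Il4, Il5 and Il13 stayed below the filter, at 0.359, 0.107 and 0.00375 FPKM in prednisone and 0.321, 0.0750 and 0.00608 FPKM in control libraries. A missed call does not show equal levels. Of 9 NK and cytotoxic genes, 1 rose, against 1.78% of all genes. It was Il2rb, a receptor chain for IL-2 and IL-15, at 0.47 (adjusted p = 0.0492). Of 10 neutrophil genes 0 were called, with 1 higher and 1 lower at an unadjusted p under 0.05, and of 5 genes of mast cells, basophils and eosinophils 0 were called, with 2 higher and 1 lower.

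Epithelial lists held few called genes. Of 23 genes of motile cilia, 2 rose, against 1.78% of all genes. In this list 8 were higher at an unadjusted p under 0.05, with a median of 0.21. Foxj1, the master regulator of ciliated cells, had 36.1, 38.8, 36.6, 37.8 and 33.6 FPKM in prednisone and 27.4, 23.6, 26.6, 24.1 and 28.1 FPKM in control libraries (0.48 ± 0.11 SE, adjusted p = 0.021), and the ciliary protein Cfap43 rose by 0.73. No library overlapped in either. Surfactant and alveolar type 2 genes had 0 of 17 called, 9 higher at an unadjusted p under 0.05, 16 with a positive fold change and a median of 0.24. Of 18 alveolar type 1 genes, 1 fell, against 1.79% of all genes. It was Cav1, the caveolin that endothelium also expresses, with 295, 233, 247, 295 and 301 FPKM in prednisone and 331, 363, 343, 423 and 310.3 FPKM in control libraries (-0.37 ± 0.09 SE, adjusted p = 0.0322). Club cell and mucous secretion genes had 0 of 16 called and 3 lower at an unadjusted p under 0.05, and matrix and remodelling genes 0 of 30, with 8 higher and 3 lower.

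The remaining lists held few called genes, to be read against 1.78% of all genes that rose and 1.79% that fell. Mcl1, which blocks apoptosis, was the 1 gene that rose of 23 in the BCL2 and TRAIL list, at 116 ± 3.86 FPKM in prednisone and 92.2 ± 10.3 FPKM in control libraries. Gclc, the rate-limiting enzyme of glutathione synthesis, was the 1 that rose of 30 antioxidant genes (0.32), and 7 of that list were lower at an unadjusted p under 0.05. Selenom, a selenoprotein of the endoplasmic reticulum, was the 1 that fell of 29 translocation and folding genes (-0.38). There were 0 called genes among 26 of Wnt signalling, 4 of skeletal muscle, 10 of red cells and platelets, 38 zinc finger genes from Zfp900 to Zfp999 and 16 replication-dependent histones, of which 0, 0, 0, 3 and 1 passed an unadjusted p under 0.05.

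Prednisone, model and control values are set side by side for the 29 genes that limma called between model and control, all higher in the model. The control and model libraries that chose these genes also enter the comparisons with prednisone, so the choice alone favours values above 0 in prednisone minus control and below 0 in prednisone minus model, and the counts are a description. Of the 29, 22 were above 0 in prednisone minus control and 12 were called there, while 25 were below 0 in prednisone minus model and 12 were called there. The median log2 fold change of the 29 was 0.37 in prednisone minus control and 0.46 in model minus control. The class II gene H2-Ab1 averaged 78.5 FPKM in prednisone, 77.9 FPKM in model and 44.7 FPKM in control libraries, and the class I light chain B2m 856 FPKM in prednisone, 742 FPKM in model and 569.7 FPKM in control libraries. The differences from the model were 0.00 for H2-Ab1 and 0.21 for B2m (limma adjusted p = 0.991 and 0.0745). Igha averaged 9.97 FPKM in prednisone, 31.9 FPKM in model and 6.19 FPKM in control libraries (prednisone minus model -1.46, adjusted p = 0.0266). Model replicate 1 was the highest library for Igha, at 69.0 FPKM, with 13.01 to 30.7 FPKM in the other model libraries. The other immunoglobulin genes of the 29, Ighg2b and Ighv4-2, did not pass against the model (adjusted p = 0.0812 and 0.0637). Olfml3 and Pkig were near the control level, with 12.7 and 29.9 FPKM in prednisone, 18.2 and 41.03 FPKM in model and 13.1 and 32.3 FPKM in control libraries. The GTPases were not among the 29: Gbp4 averaged 42.4 FPKM in prednisone, 13.2 FPKM in model and 12.9 FPKM in control libraries, and prednisone exceeded the model for this gene (1.45, adjusted p = 0.0144) and for Igtp (1.09, adjusted p = 0.02). Hspa1b likewise exceeded the model (1.14, adjusted p = 0.0218).

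**Figure D5:**
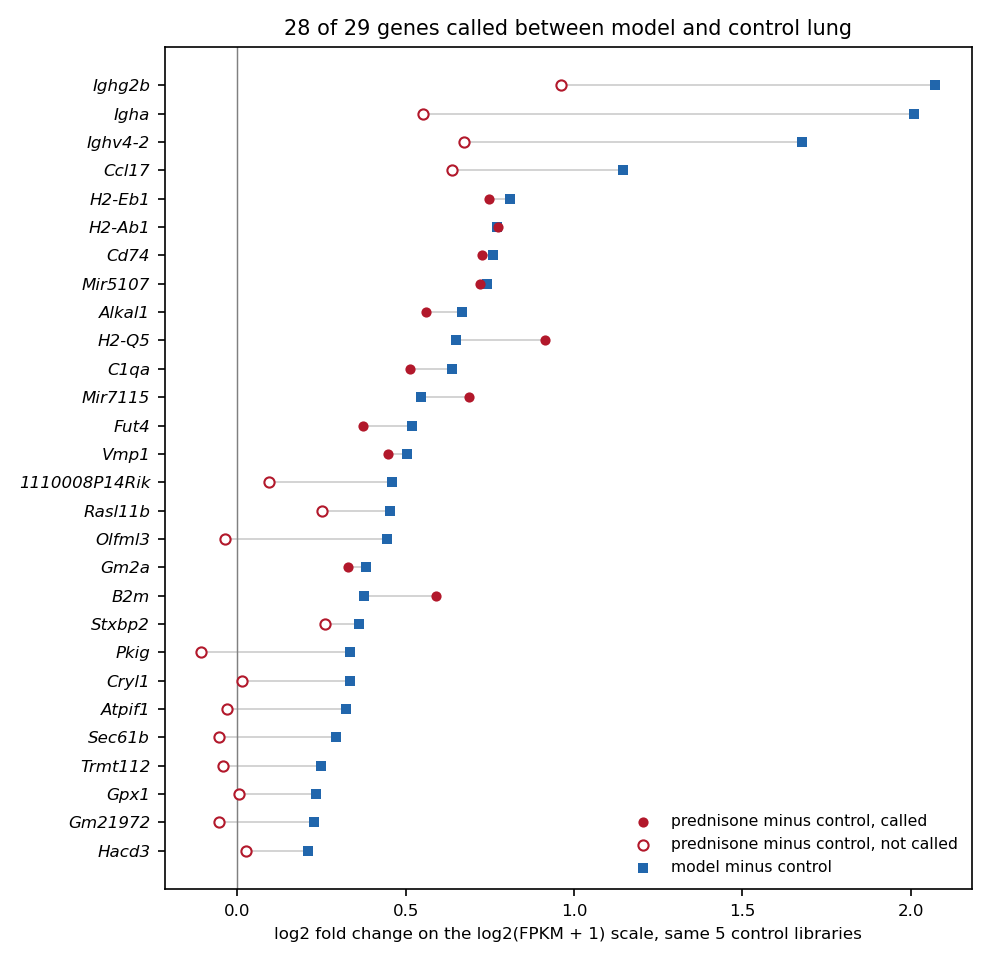
Log2 fold change against the same 5 control libraries (horizontal axis) of 28 of the 29 genes called between model and control, with red circles for prednisone minus control (filled where called) and blue squares for model minus control. H2-Ab1, H2-Eb1 and Cd74 nearly coincide, Igha and Ighg2b are nearer to control in prednisone, and Olfml3, Pkig and Sec61b lie at or slightly below 0.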

How the data were processed

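Lung RNA was extracted with TRIzol, prepared with a NEBNext Ultra kit for RNA and read from both ends on a NovaSeq, per the labels' protocols. The authors deposited 1 table of FPKM values for 54532 Ensembl genes in 20 libraries; fastp, HISAT2, featureCounts, DESeq2 and GRCm38 are named in the submitters' processing notes, with versions not given in the sources used here. FPKM is already scaled to gene length and library total, so raw counts and depth are unknown: the values did not resolve into whole reads. Symbols, lengths and GC content came from GENCODE vM21, which held 54495 of the IDs.

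Values were transformed as log2(FPKM + 1), with a pseudocount of 1, and genes at 1 FPKM or more in at least 5 of 20 libraries were kept, 15106 in all. All 4 groups of 5 entered limma 3.58.1 (R 4.3.3), with a variance trend, moderated residual degrees of freedom and the contrast prednisone minus control. P-values were adjusted by Benjamini-Hochberg over all 15106 genes, and called genes are those with an adjusted p below 0.05. All adjusted p-values in the text come from limma. The code was tested on simulated data. Tables were handled with pandas 2.3.3 in Python 3.11.15.

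The text names the 12 largest called rises and falls whose libraries do not overlap, up to 4 called members of each of 49 lists or 2 of smallest p where none was called, and 24 fixed genes. The ranking of rises and falls left out predicted genes (Gm and Rik names), immunoglobulin and T cell receptor segments, pseudogenes and small RNA genes. Some genes that the rule names are not reported here. Other genes named were chosen after their values were seen. The lists and the comparison were chosen with earlier results of these data known. Alternatives tried were another scaling, quantile normalization, a pseudocount of 0.1, no filter, only prednisone and control libraries, a replicate block, a fat marker covariate, a length and GC correction and leaving out each library. The replicate number of prednisone replicate 5 follows its title.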

Additional observations from a re-analysis of the deposited data

Results flagged for a closer look

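In 13 groups of 5 libraries, 1 library stood apart from the other 4 by Dixon's test at 95%, which chance gives in about 1 group in 20. The named genes gave 280 groups, but groups with every value under 1 FPKM were not screened, so fewer than 280 were tested. In prednisone, Ighg1 was 15.1 FPKM in replicate 2, against 1.06 to 3.84 FPKM in the others, and Pf4, a platelet chemokine, was 20.2 FPKM in replicate 1, against 11.7 to 13.2 FPKM.

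The other 11 were in control libraries. Control replicate 4 stood apart for Klhl5 (64.2 FPKM, others 48.1 to 51.5), Dnajb1 (17.1 FPKM, others 8.96 to 10.6), Pf4 (22.8 FPKM, others 13.8 to 15.3) and Scgb1a1 (46654 FPKM, others 52461 to 54273). Control replicate 2 stood apart for Zbp1 (3.55 FPKM, others 2.22 to 2.49), Cd79a (23.3 FPKM, others 10.4 to 13.7) and Cd79b (32.7 FPKM, others 12.6 to 18.0). Control replicate 1 stood apart for Nfil3 (1.75 FPKM, others 1.05 to 1.21) and Tnni2 (3.06 FPKM, others 0.942 to 1.46), control replicate 3 for Tbxas1 (2.22 FPKM, others 0.192 to 0.262) and control replicate 5 for Reg3g (98.1 FPKM, others 25.1 to 43.7).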

How the results depend on the processing

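The 540 calls (269 higher, 271 lower) became 740 under median-of-ratios scaling, 685 under quantile normalization, 655 with a length and GC correction, 537 with a pseudocount of 0.1, 259 of 37958 genes without the filter and 256 with only prednisone and control libraries. With the fat marker covariate 65 genes were called, 43 higher and 22 lower. Prednisone and control libraries differ in that covariate, so part of any difference between them is removed with it by construction. None of the 140 genes followed under every setting changed sign where it was called in the main fit or under that setting. Sign changes of genes called in neither were not counted.

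With the fat marker covariate, 3 guanylate-binding proteins, 4 immunity-related GTPases, 3 type I interferon-stimulated genes and 3 class I genes rose, 0 class II, 0 C1q and interstitial macrophage and 0 glucocorticoid-induced genes rose, and 1 endothelial, 0 smooth muscle and 0 respiratory chain genes fell. Without the filter, where more genes share the adjustment, 6 guanylate-binding proteins, 3 interferon-stimulated, 2 macrophage and 0 glucocorticoid-induced genes rose, and 6 endothelial and 2 respiratory chain genes fell. With only prednisone and control libraries, which leaves fewer samples to estimate the spread, 6 guanylate-binding proteins, 5 immunity-related GTPases, 3 interferon-stimulated, 2 macrophage and 0 glucocorticoid-induced genes rose and 3 respiratory chain genes fell. Respiratory chain calls were 16 with median-of-ratios scaling, and glucocorticoid-induced calls were 3 with quantile normalization and 3 with the length and GC correction; the cause was not tested.

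Leaving out any 1 of the 20 libraries gave 229 to 662 calls in all. The counts that rose were 6 to 10 guanylate-binding proteins, 7 to 8 immunity-related GTPases, 4 to 8 interferon-stimulated genes, 8 to 10 class I, 3 to 6 class II, 1 to 7 macrophage, 9 to 10 chaperone and 0 to 3 glucocorticoid-induced genes. The counts that fell were 6 to 16 endothelial, 3 to 6 smooth muscle and 2 to 15 respiratory chain genes. Of the 24 genes ranked by size, 22 to 24 were still called then, and 17 to 24 under the other 8 settings.

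With the replicate number as a block, 423 genes were called and 2 macrophage genes in place of 5. The numbers were not taken to pair the libraries, since 3 of 5 and not all same-numbered pairs had a correlation over 0.1: the correlations of same-numbered prednisone and control libraries were 0.124, 0.117, 0.036, -0.109 and 0.105, and 2 of the 5 matched their own number best. Depth is unknown, so no limit could be set for genes near 0 FPKM.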

Other observations

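Further immune genes outside the lists were called higher in prednisone libraries, and these genes were chosen after their values were seen. Fcgr4, an activating receptor for immunoglobulin G, averaged 6.94 ± 1.54 FPKM in prednisone and 2.75 ± 0.274 FPKM in control libraries (SD, n = 5 each, log2 fold change 1.06, limma adjusted p = 0.000278). Fcer1g, the signalling chain shared by Fc receptors, averaged 16.7 ± 4.38 FPKM in prednisone and 9.12 ± 1.75 FPKM in control libraries (0.79, limma adjusted p = 0.036). Mpeg1, a pore-forming protein of macrophages, and Aif1, a macrophage actin-binding protein, rose by 0.87 and 0.88. Cd274, the ligand PD-L1, rose by 0.96, the inhibitory T cell receptor Ctla4 by 0.84 and Havcr2, the receptor TIM-3, by 0.63. Il1r1, the signalling receptor of interleukin-1, averaged 5.24 ± 2.29 FPKM in prednisone and 2.05 ± 0.572 FPKM in control libraries (0.98, limma adjusted p = 0.0157).

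Among falls, Rapgef4, an exchange factor activated by cyclic AMP, had the log2 fold change -1.37 with groups that overlapped (limma adjusted p = 0.0135). Tspan7, a tetraspanin, averaged 122 ± 20.02 FPKM in prednisone and 185 ± 21.4 FPKM in control libraries (limma adjusted p = 0.00536).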
